A study of Mus musculus with 5 samples.

Results

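The axon guidance ligands and receptors were examined in cultured mouse neural stem/progenitor cells (NSPCs). They were taken by symbol, and comprise the semaphorins with their plexin and neuropilin receptors, the Eph receptors with their ephrins, the Slits with the Robo receptors, the netrins with Dcc, Neo1 and the Unc5 receptors, and the Nogo receptors with the Lingo proteins. Of 12588 gene sums in the deposited table, 62 belonged to these families, and they were built from 100 of 22227 listed transcripts. A gene sum is the sum of the normalized counts over the listed transcripts of 1 symbol. The annotation holds 77 such protein-coding genes, and the other 15 were not analysed here.

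Polyadenylated RNA was sequenced from 5 cultures to ask which genes depend on p75NTR, the neurotrophin receptor encoded by Ngfr. All cultures were of strain C57BL/6J, untreated and proliferating with FGF-2 and EGF, each at 20 ng/ml. The labels give E12.5 embryos as the source, whereas the methods of the study describe cells of the adult subventricular zone. The 2 libraries labelled WT (replicates 1 and 4) are given the genotype p75NTR+/+ and described as litter mates, and the 3 libraries labelled p75NTR-/- (replicates 1, 2 and 4) are given the genotype p75NTR-/-. The study describes 4 replicas from independent preparations, whereas 2 libraries labelled WT and 3 labelled p75NTR-/- were available here. No litter, day or batch is given for the replicate numbers.

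Guidance ligands are secreted or membrane-bound proteins that steer growing axons and migrating cells by attraction or repulsion, and their receptors act on the actin cytoskeleton, largely through small GTPases. Ephrins and many semaphorins stay on the cell surface, so that signalling needs contact between cells. In the germinal zones of the brain these families are known to guide migrating neuroblasts and to affect progenitor proliferation. p75NTR itself belongs to this field, because it acts as a signalling partner of the Nogo receptor together with Lingo1.

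The recovered totals ranged from 11688211 to 14452396 counts per library, and 3 counts, the upper limit that a count of 0 allows, equalled 2.94 to 3.60 normalized counts. Such limits cover counting error only. Ngfr, the targeted gene, went against the labels. Replicates 1 and 4 labelled WT held 0.98 and 2.08 normalized counts of it, and replicates 1, 2 and 4 labelled p75NTR-/- held 9.89, 141 and 251. Samples are therefore called by their label throughout, which is the only meaning of a direction given here. All 7 of 7 progenitor markers were listed, with a summed level of 7473 to 8907 TPM (a unit of level per transcript length). All 5 microglia markers, 4 of 5 endothelial markers (Pecam1, Cldn5, Cdh5 and Tek) and 4 of 5 mural and meningeal markers had no listed transcript. Of 8 neuron markers 4 were listed, and Dcx, Rbfox3, Syt1 and Stmn2 were not.

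Promoters are shown for the 3 genes whose levels best display the pattern that the data turned on, in which both libraries numbered 4 stood apart, and were chosen after the values were seen. Unc5b, a repulsive netrin receptor, and Plxnd1, a plexin known from vascular and axonal guidance, were high in these libraries. Slit2, a secreted repellent that binds Robo receptors, was low in them. Each sequence holds the 250 bases before the gene start, from RefSeq on GRCm38.p6, read in the direction of transcription, and the capitals mark GC boxes (GGGCGG, either strand). The windows are chr10:60831582-60831831 on the minus strand for Unc5b, chr6:115995006-115995255 on the minus strand for Plxnd1 and chr5:47982905-47983154 on the plus strand for Slit2.
Unc5b promoter: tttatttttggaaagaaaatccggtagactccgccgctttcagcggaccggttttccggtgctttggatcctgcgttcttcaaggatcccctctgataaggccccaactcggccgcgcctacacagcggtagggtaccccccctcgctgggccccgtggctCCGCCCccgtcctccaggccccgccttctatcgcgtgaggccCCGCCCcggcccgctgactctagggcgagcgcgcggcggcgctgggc
Plxnd1 promoter: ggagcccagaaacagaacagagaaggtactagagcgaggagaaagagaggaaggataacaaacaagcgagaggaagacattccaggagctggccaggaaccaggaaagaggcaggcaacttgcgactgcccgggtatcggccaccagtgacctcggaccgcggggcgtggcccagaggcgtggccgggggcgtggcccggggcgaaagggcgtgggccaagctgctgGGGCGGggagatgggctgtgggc
Slit2 promoter: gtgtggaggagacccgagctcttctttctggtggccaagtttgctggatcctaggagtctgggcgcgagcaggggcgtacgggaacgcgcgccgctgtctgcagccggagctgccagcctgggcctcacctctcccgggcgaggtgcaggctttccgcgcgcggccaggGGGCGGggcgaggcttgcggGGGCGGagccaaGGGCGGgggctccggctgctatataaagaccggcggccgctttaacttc
Unc5b held 2 GC boxes, Plxnd1 held 1 and Slit2 held 3. The letters TATAAA (either strand) were found in the window of Slit2 and in neither of the others. A GC box was present in 38 of the 53 member windows in the RefSeq table (71.7%) and in 32.7% of all 32851 promoter windows, and TATAAA in 2 of 53 (3.77%) and in 12.4%. A single window was counted for each member, whereas the 32851 hold every distinct start of every gene in the RefSeq table, whether or not it was listed here. The shares of the members and of all windows are therefore not counted alike, and no enrichment can be read from them. Among genes whose libraries numbered 4 were above the other 3, a GC box was found in 9 of 10 windows, and among those below in 7 of 9. Most windows of both sets held this motif.

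Alternative coding stretches are shown for 3 genes whose listed forms were compared. The sequences are GENCODE M21 transcripts on GRCm38, with the alternative stretch in capitals between 24 spliced bases on each side in lower case. In Sema5b, a transmembrane semaphorin, transcript ENSMUST00000120756 keeps 87 bases (chr16:35660071-35660157, plus strand, 29 codons in frame) that are an intron in ENSMUST00000050625. In Unc5b, ENSMUST00000077925 has an exon of 33 bases (chr10:60777185-60777217, minus strand, 11 codons) that ENSMUST00000218637 lacks. In Neo1, a netrin and RGM receptor related to Dcc, ENSMUST00000068664 has an added 48 bases of an exon (chr9:58907047-58907094, minus strand, 16 codons) and an exon of 33 bases (chr9:58902083-58902115, minus strand, 11 codons) that ENSMUST00000214547 lacks.
Sema5b 87-base stretch: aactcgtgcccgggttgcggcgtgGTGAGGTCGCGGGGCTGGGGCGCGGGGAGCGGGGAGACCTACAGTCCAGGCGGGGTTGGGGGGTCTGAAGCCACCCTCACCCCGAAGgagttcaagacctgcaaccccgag
Unc5b 33-base stretch: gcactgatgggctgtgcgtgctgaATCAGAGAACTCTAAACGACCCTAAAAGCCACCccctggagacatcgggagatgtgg
Neo1 48-base stretch: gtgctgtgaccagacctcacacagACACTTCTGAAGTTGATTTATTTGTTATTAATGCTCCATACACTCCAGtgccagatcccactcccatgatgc
Neo1 33-base stretch: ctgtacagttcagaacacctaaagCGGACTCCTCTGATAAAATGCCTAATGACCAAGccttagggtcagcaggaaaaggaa

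By level per transcript length, the most abundant of these genes in NSPCs was Plxnb2, a receptor of class 4 semaphorins, at 48.7 ± 2.97 TPM (SD, n = 5). It was followed by the secreted ligand Ntn1 at 38.0 ± 3.08 TPM, the transmembrane ligand Sema6d at 33.5 ± 3.10 TPM and the receptor Neo1 at 30.7 ± 3.12 TPM. Plxnb2 and Ntn1 differed by more than their SDs, whereas Ntn1 and Sema6d, and Sema6d and Neo1, overlapped within 1 SD. Sema5b (28.0 ± 1.38 TPM), Lingo1 (27.1 ± 13.1 TPM), Ntn4 (24.5 ± 7.61 TPM), Sema6a (23.6 ± 4.75 TPM), Sema3a (18.5 ± 6.71 TPM) and Epha5 (17.7 ± 4.69 TPM) came next, and neighbours in this order overlapped within 1 SD. Short listed transcripts weigh more in a TPM than in a gene sum, as in Sema3a and Sema5b. Of the Sema5b level, 5.45 to 14.65 TPM came from ENSMUST00000128347, a transcript of 694 bases that is not annotated as protein-coding. The place of Sema5b in this order rests in part on that form. Of the 62 genes, 46 had a mean gene sum of at least 50 normalized counts, the minimum used for a call, and 16 were under it. The low end held Robo3 (0.140 TPM), Unc5c (0.152 TPM) and Sema4a (0.0440 TPM). Sema4a was listed at 0 in 4 libraries and at 10.6 normalized counts in replicate 4 labelled p75NTR-/-.

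**Figure D1:**
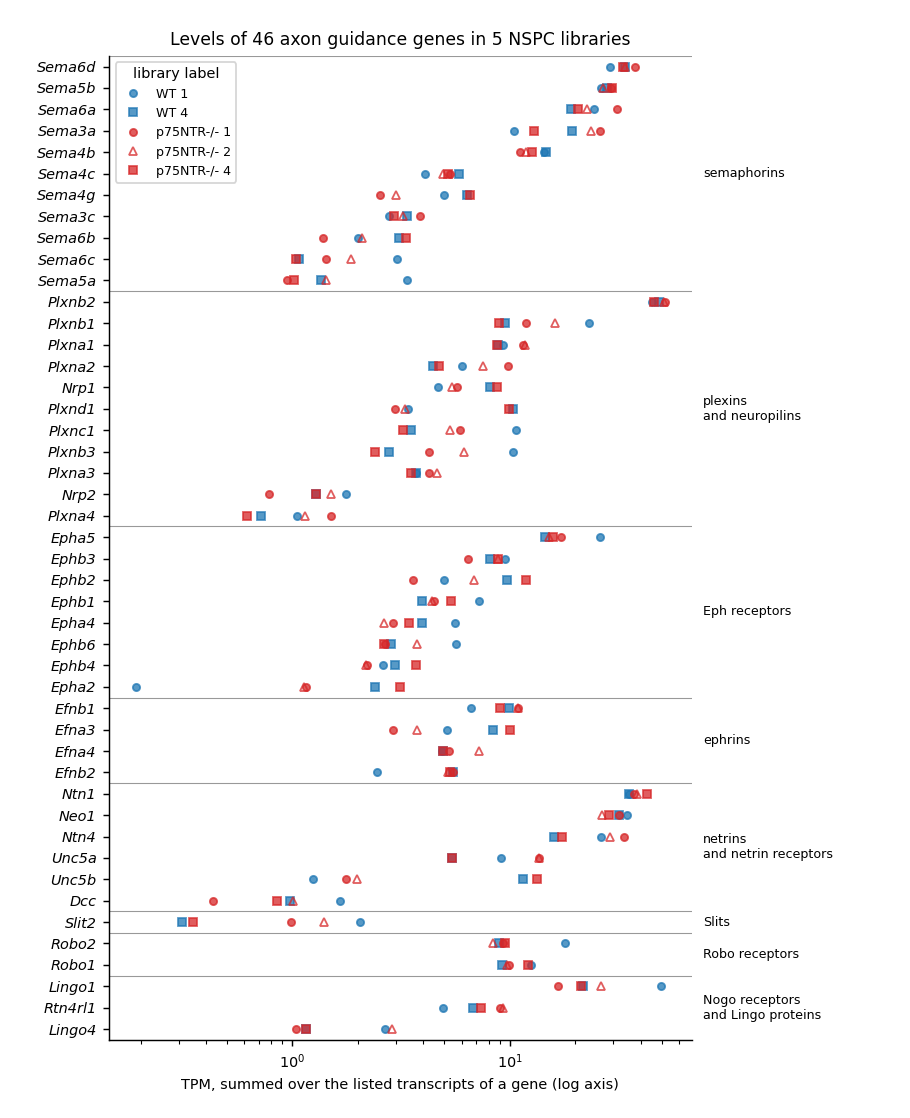
Level of each of the 46 genes with a mean gene sum of 50 or more in the 5 libraries, in TPM on a log axis, ordered by family and mean level. Blue symbols are the libraries labelled WT, red symbols those labelled p75NTR-/-, and squares mark the libraries numbered 4. Plxnb2 is highest at 48.7 TPM with its 5 libraries close together, whereas the squares stand apart from the other symbols for Plxnd1, Unc5b and Slit2.

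The question of the study, which genes differ with p75NTR, was asked of each member with limma on log2(gene sum + 1) over all gene sums. A call needed a mean of 50 or more, a 1.5-fold difference or more and an adjusted p (Benjamini-Hochberg) under 0.05. Of the 62 members limma called 0, beside 0.00794% of all gene sums. The adjusted p of every member was at least 0.934. An unadjusted p under 0.05 was found for 1 member (Epha4), beside 2.08% of all gene sums. DESeq2 on the recovered counts called 0 of 62, beside 0.0556%, and found 2 with an unadjusted p under 0.05, beside 3%. edgeR's quasi-likelihood test called 0 of the 60 it tested, beside 0%, and found 2 with an unadjusted p under 0.05, beside 2.11%. With 2 against 3 libraries an exact permutation test of a single gene cannot give a p under 0.1, and none was run.

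The median log2 fold change (label p75NTR-/- minus label WT) of the 46 members of mean 50 or more was -0.075, beside 0.016 for all 10786 gene sums of that level. Of the 46, 20 were above 0 and 26 below. The medians by family ran from -0.26 for the Robo receptors to 0.27 for the ephrins, with 7 of 8 Eph receptors below 0 and 3 of 4 ephrins above 0. Replicate 1 labelled WT was the highest library in 5 of these 8 Eph receptors and the lowest in 1. In these 4 ephrins it was the lowest in 2 and the highest in 0. The share of all gene sums above or below 0 is not given here, so that these counts have no background beside them. In 6 of the 46 members (13%) the libraries of the labels did not overlap, beside 14.7% of all gene sums of this level. The share among the guidance genes was therefore no larger than the background.

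**Figure D2:**
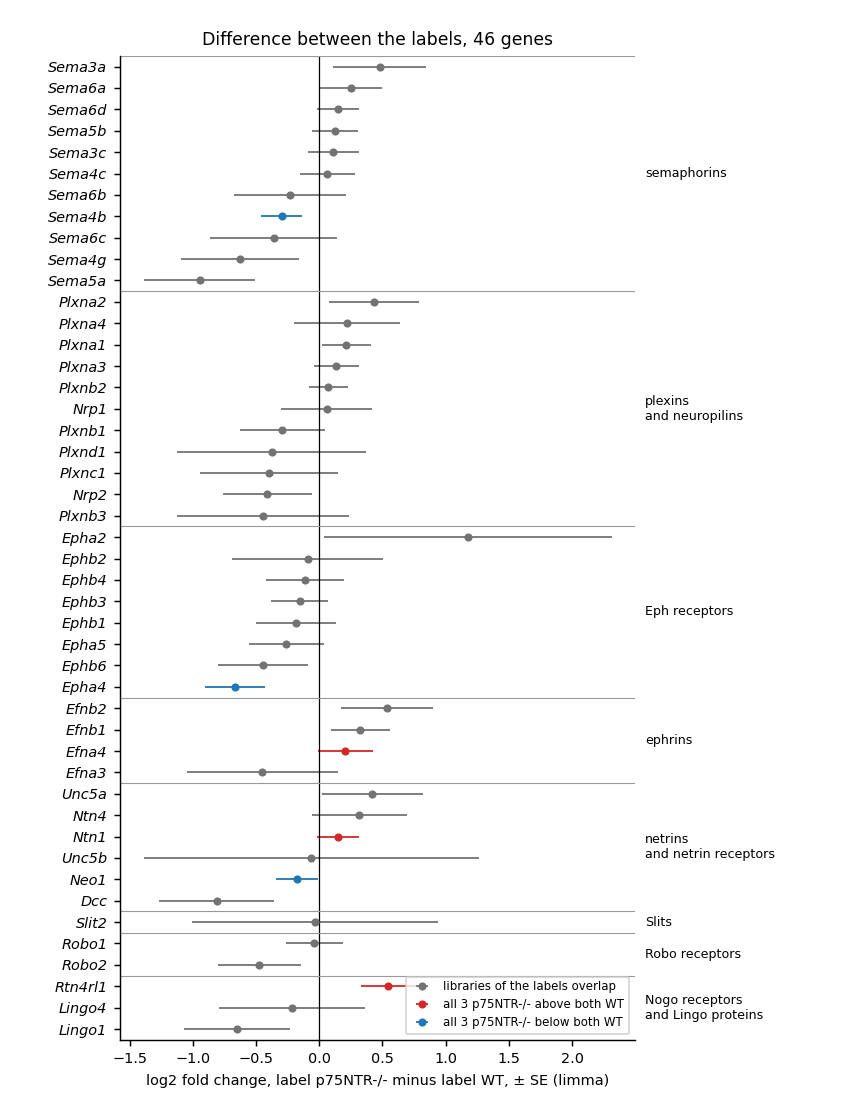
Log2 fold change of the 46 genes between the labels (p75NTR-/- minus WT), with limma's standard error as bars, ordered by family. Red marks Ntn1, Efna4 and Rtn4rl1, in which all 3 libraries labelled p75NTR-/- were above both labelled WT, and blue marks Sema4b, Epha4 and Neo1, in which they were below. None of the 46 genes passed the threshold, and the widest bars belong to Unc5b (-0.061 ± 1.33) and Epha2 (1.18 ± 1.14).

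Among the semaphorins, the transmembrane ligands Sema6d, Sema5b and Sema6a and the secreted repellent Sema3a led the family. Sema6d had gene sums of 2141 and 2482 in replicates 1 and 4 labelled WT and of 2748, 2470 and 2467 in replicates 1, 2 and 4 labelled p75NTR-/-, an even level in which the labels overlapped (log2 fold change 0.15 ± 0.17 SE, limma adjusted p = 0.934). Sema5b was as even, with 1031 and 1003 labelled WT and 1029, 1283 and 1033 labelled p75NTR-/- (0.12 ± 0.18, limma adjusted p = 0.934). Sema6a, a ligand of the class A plexins, had 1429 and 1089 labelled WT and 1773, 1522 and 1212 labelled p75NTR-/- (0.25 ± 0.24, limma adjusted p = 0.934). Here both libraries numbered 4 were the lowest under their label.

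Sema3a, which signals through neuropilin 1 and class A plexins, had gene sums of 563 and 466 labelled WT and of 1022, 763 and 468 labelled p75NTR-/- (log2 fold change 0.48 ± 0.37, limma adjusted p = 0.934). Both libraries numbered 4 were again the lowest, and nearly equal. Its level in TPM followed another order, with 10.5 and 19.4 labelled WT and 26.1, 23.7 and 12.9 labelled p75NTR-/-, since ENSMUST00000141968, a listed transcript of 312 bases with 0 to 13.5 normalized counts, added 0 to 11.0 TPM. Sema5a, a transmembrane ligand with thrombospondin repeats, had 248 and 99.9 labelled WT and 68.3, 103 and 76.1 labelled p75NTR-/- (-0.95 ± 0.44, limma adjusted p = 0.934). Its difference rested on replicate 1 labelled WT, without which the log2 fold change was -0.29. Sema4g, a class 4 transmembrane semaphorin, had 265 and 337 labelled WT and 132, 156 and 351 labelled p75NTR-/- (-0.63 ± 0.47, limma adjusted p = 0.934), and within number 4 the labels differed by 0.057 on this scale.

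Sema4b, a class 4 semaphorin named after its values were seen, was the only 1 of the 11 semaphorins of mean 50 or more whose labels did not overlap. It had 752 and 767 labelled WT against 577, 610 and 672 labelled p75NTR-/- (log2 fold change -0.30 ± 0.16, limma adjusted p = 0.934). As the labels did not overlap, the difference had to keep its direction within number 1 (-0.38) and within number 4 (-0.19). The other 6 semaphorins (Sema3b, Sema3d, Sema3e, Sema4a, Sema4d and Sema7a) were under a mean of 50 and ranged from 2.11 to 37.5 in mean gene sum.

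Among the semaphorin receptors, Plxnb2 was even across the libraries. It had gene sums of 5577 and 5963 labelled WT and of 6285, 6191 and 5739 labelled p75NTR-/- (log2 fold change 0.073 ± 0.16, limma adjusted p = 0.959). Plxnb1, the Sema4d receptor, had 2400 and 1228 labelled WT and 1398, 1621 and 1219 labelled p75NTR-/- (-0.29 ± 0.34, limma adjusted p = 0.934), with the highest value in replicate 1 labelled WT. Plxna1, a co-receptor of the class 3 semaphorins, had 1160.0 and 1102 labelled WT and 1417, 1444 and 1102 labelled p75NTR-/- (0.21 ± 0.20, limma adjusted p = 0.934). The labels overlapped in all 11 plexins and neuropilins, all of which had a mean of 50 or more. Their log2 fold changes ran from -0.45 for Plxnb3 to 0.43 for Plxna2.

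Among the Eph receptors, tyrosine kinases that bind ephrins on neighbouring cells, Epha4 had the lowest unadjusted p of all members. Its gene sums were 389 and 274 labelled WT and 199, 180.2 and 241 labelled p75NTR-/-. All 3 libraries labelled p75NTR-/- were thus below both labelled WT, with a mean of 207 ± 31.1 (SD, n = 3) against 331 ± 81.3 (n = 2). The log2 fold change was -0.67 ± 0.24, with an unadjusted p of 0.039 and an adjusted p of 0.934 in limma, and it ranged from -0.92 to -0.41 with 1 library left out. Within number 1 it was -0.96 and within number 4 -0.18. As the labels did not overlap, none of these values could change sign. The single listed transcript of Epha4, ENSMUST00000188952 (chromosome 1, 77367189 to 77515079, minus strand, 18 exons), is annotated as subject to nonsense-mediated decay.

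Epha5, the Eph receptor with the highest level, had gene sums of 1688 and 924 labelled WT and of 1126, 982 and 1025 labelled p75NTR-/- (log2 fold change -0.26 ± 0.30, limma adjusted p = 0.934). Ephb3 had 608 and 515 labelled WT and 407, 550.2 and 568 labelled p75NTR-/- (-0.15 ± 0.22, limma adjusted p = 0.934). In both, the highest library was replicate 1 labelled WT and the labels overlapped. Epha2 varied most of all Eph receptors, with 11.8 and 147 labelled WT and 70.3, 67.3 and 193 labelled p75NTR-/- (1.18 ± 1.14, limma adjusted p = 0.934). Its direction between the labels depended on replicate 1 labelled WT, without which the log2 fold change was -0.59.

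The ephrins are the membrane-bound partners of the Eph receptors. Efnb1, a transmembrane ephrin, had 132 and 198 labelled WT and 215, 213 and 183 labelled p75NTR-/- (log2 fold change 0.32 ± 0.23, limma adjusted p = 0.934). Efnb2, the ligand of Ephb4 in vessels and of several EphB and EphA receptors, had 50.1 in replicate 1 labelled WT and 106 to 112 in the other 4 libraries (0.54 ± 0.36, limma adjusted p = 0.934). Without that single library the log2 fold change of Efnb2 was -0.037. Efna3, a lipid-anchored ephrin, had 55.0 and 89.5 labelled WT and 30.7, 39.6 and 109 labelled p75NTR-/- (-0.45 ± 0.60, limma adjusted p = 0.934), with both libraries numbered 4 on top. Efna4, named after its values were seen, did not overlap between the labels, but by a small margin (48.1 and 47.9 against 50.5, 69.7 and 48.6).

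Ntn1, the attractant of commissural axons and ligand of Dcc and Neo1, had 997 and 988 labelled WT and 1030.0, 1062 and 1215 labelled p75NTR-/-. Each library labelled p75NTR-/- was above both labelled WT, and the difference was small (log2 fold change 0.15 ± 0.17, limma adjusted p = 0.934). Neo1 had 3086 and 2910 labelled WT and 2814, 2404 and 2766 labelled p75NTR-/-, without overlap in the opposite direction (-0.17 ± 0.17, limma adjusted p = 0.934). Ntn4, a laminin-related netrin, had 1050.0 and 641 labelled WT and 1331, 1141 and 703 labelled p75NTR-/- (0.32 ± 0.37, limma adjusted p = 0.934), with both libraries numbered 4 at the bottom. Dcc, the receptor that mediates attraction to netrin, had 172 and 99.9 labelled WT and 44.5, 103 and 88.7 labelled p75NTR-/- (-0.81 ± 0.45, limma adjusted p = 0.934). The labels overlapped for Dcc, and within number 4 they differed by -0.17 and within number 1 by -1.92.

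Robo1 and Robo2, the main Slit receptors, were both well expressed. Robo1 had gene sums of 1414 and 1040.3 labelled WT and of 1101, 1080.0 and 1387 labelled p75NTR-/- (log2 fold change -0.038 ± 0.23, limma adjusted p = 0.986). Robo2 had 1658 in replicate 1 labelled WT and 779.7 to 883 in the other 4 libraries (-0.47 ± 0.33, limma adjusted p = 0.934), and without that library its log2 fold change was 0.033. Robo3, known from midline crossing, was listed at 0 in replicate 4 labelled WT and replicate 1 labelled p75NTR-/- and had at most 22.8 elsewhere. Slit1 ranged from 28.5 to 51.7 normalized counts in the 5 libraries.

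Of the Nogo receptors and Lingo proteins, Lingo1, the co-receptor that joins p75NTR in the Nogo receptor complex, was the most abundant. It had 1738 and 755 labelled WT and 573, 901 and 749 labelled p75NTR-/- (log2 fold change -0.65 ± 0.42, limma adjusted p = 0.934). The high value in replicate 1 labelled WT carried the difference, which was -0.052 without it. Rtn4rl1, a Nogo receptor homologue that binds chondroitin sulphate proteoglycans, had 124 and 171 labelled WT and 224, 229 and 187 labelled p75NTR-/-. All 3 libraries labelled p75NTR-/- were above both labelled WT, with means of 213 ± 23.0 (SD, n = 3) and 147 ± 33.2 (n = 2), a log2 fold change of 0.55 ± 0.22 and a limma adjusted p of 0.934. Lingo4 had 102 and 44.7 labelled WT and 39.6, 108 and 45.4 labelled p75NTR-/- (-0.22 ± 0.58, limma adjusted p = 0.967), so that 1 library of each label was high. Rtn4r, the Nogo receptor itself, was low, with 5.94 to 20.8 normalized counts.

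More members were split by replicate number 4 than by label. In 22 of the 46 members of mean 50 or more, against 6 for the labels, both libraries numbered 4, 1 of each label, lay outside the range of the other 3. They were above in 10 members (21.7%, beside 23% of all gene sums of this level) and below in 12 (26.1%, beside 22%). The number of such members is therefore near the background. The size of the difference was less so, since 8 members (17.4%) stood apart by 2-fold or more, beside 5.12% of all gene sums of this level, 5 above and 3 below. The split was looked at after the data had been seen and has no test. In bulk RNA, fewer cells of a type and less RNA per cell cannot be told apart.

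Unc5b, which mediates repulsion by netrins, differed most between these libraries. It had gene sums of 617 and 734 in the libraries numbered 4 labelled WT and p75NTR-/-, and of 66.7, 94.0 and 107 in replicate 1 labelled WT and replicates 1 and 2 labelled p75NTR-/-. The libraries numbered 4 were 7.57-fold higher on average, with no overlap, while the labels overlapped (log2 fold change -0.061 ± 1.33, limma adjusted p = 0.996). Epha2 was 3.42-fold higher, with 147 and 193 against 11.8, 70.3 and 67.3.

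Plxnd1, named after its values were seen, had 1096 and 1064 in the libraries numbered 4 and 360.2, 309 and 345 in the others, in the same order, a 3.20-fold difference in which both clusters were tight. Ephb2, an EphB receptor known from synapses and axon sorting, had 618 and 763 against 318, 223 and 425 (2.14-fold), and Efna3 differed by 2.37-fold. Smaller differences in the same direction were found for Nrp1, the neuropilin that binds Sema3a and VEGF (1.63-fold), Sema4g (1.87-fold), Sema6b (1.80-fold), Ephb4 (1.46-fold) and Sema4c (1.18-fold). Nrp1, Sema6b, Ephb4 and Sema4c were named after their values were seen.

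In the opposite direction, Slit2 had 34.3 and 39.1 in the libraries numbered 4 labelled WT and p75NTR-/-, and 224, 107 and 151 in replicate 1 labelled WT and replicates 1 and 2 labelled p75NTR-/-. The other 3 libraries were 4.38-fold higher on average. Plxnb3, a B plexin known from oligodendrocytes, had 363 and 317 against 1354, 546 and 788, with the other 3 libraries 2.64-fold higher. Plxnc1, the receptor of Sema7a and named after its values were seen, had 336 and 315 against 1026, 557 and 501 (2.13-fold).

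Lower values in both libraries numbered 4, as in 22% of all gene sums of this level, were also seen in the plexins Plxna1, Plxna2 and Plxna4, of which the other 3 libraries were 1.22-fold, 1.67-fold and 1.81-fold higher, whereas Plxna3 overlapped. Of the class 3 and class 6 semaphorins, Sema6a (1.37-fold), Sema3a (1.68-fold) and Sema6c (1.95-fold) were also on this side, Sema6b was on the other, and Sema6d and Sema3c overlapped. The remaining genes on this side were Plxnb1 (1.48-fold), Ntn4 (1.75-fold) and Unc5a (1.85-fold). Thus Unc5a and Unc5b, both netrin receptors, differed in opposite directions. Plxna2, Plxna4, Unc5a and Sema6c were named after their values were seen. The same 22 members stood apart after TMM scaling or as CPM.

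Single markers of several cell types also stood apart in the libraries numbered 4, while most lists were mixed. Of all gene sums of mean 50 or more, 23% were above and 22% below, so that a single marker apart was not unusual. Of 6 astrocyte markers 2 were above, Gfap (680 and 746 normalized counts against 241, 11.9 and 1.20) and Aqp4, and 4 overlapped, among them S100b (347 and 410 against 1421, 475 and 369). Their summed level of 868 and 911 TPM lay within the 634 to 1402 TPM of the others. Of 4 listed oligodendrocyte precursor markers 3 were below, Olig1, Olig2 and Cspg4, and the sum was 342 and 360.0 TPM against 630.4 to 944 TPM. Of 4 listed neuron markers Map2 was below and Elavl3 above, while Tubb3 and Snap25 overlapped. Their sum of 648 and 690.0 TPM against 929 to 984 TPM was nearly all Map2, with 617 and 654 TPM in the libraries numbered 4. Flt1, the only listed endothelial marker, had 213 and 242 normalized counts against 30.7 to 33.6. Of the 7 progenitor markers Vim was above, Hes5 below and 5 overlapped, and the sum was 8389 and 8907 TPM against 7473 to 8028 TPM. The part of these cell types in the differences of the guidance genes was not tested.

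**Figure D3:**
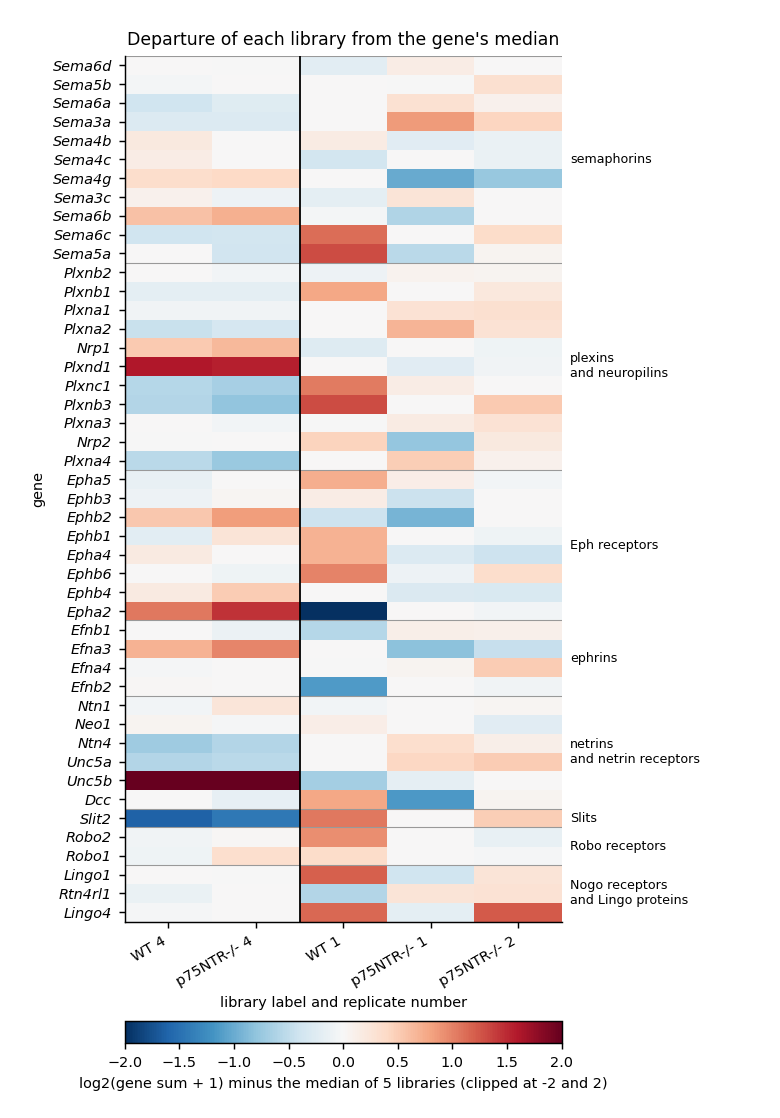
Departure of each library from the median of the 5 libraries for each of the 46 genes, in log2(gene sum + 1), red above and blue below the median and clipped at -2 and 2. The 2 columns left of the black line are the libraries numbered 4, and they share their colours for Unc5b, Plxnd1, Epha2 and Slit2 although 1 is labelled WT and 1 p75NTR-/-. Replicate 1 labelled WT also has strong colours, such as the low value of Epha2 (11.8) and the high value of Plxnb3 (1354).

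**Figure D4:**
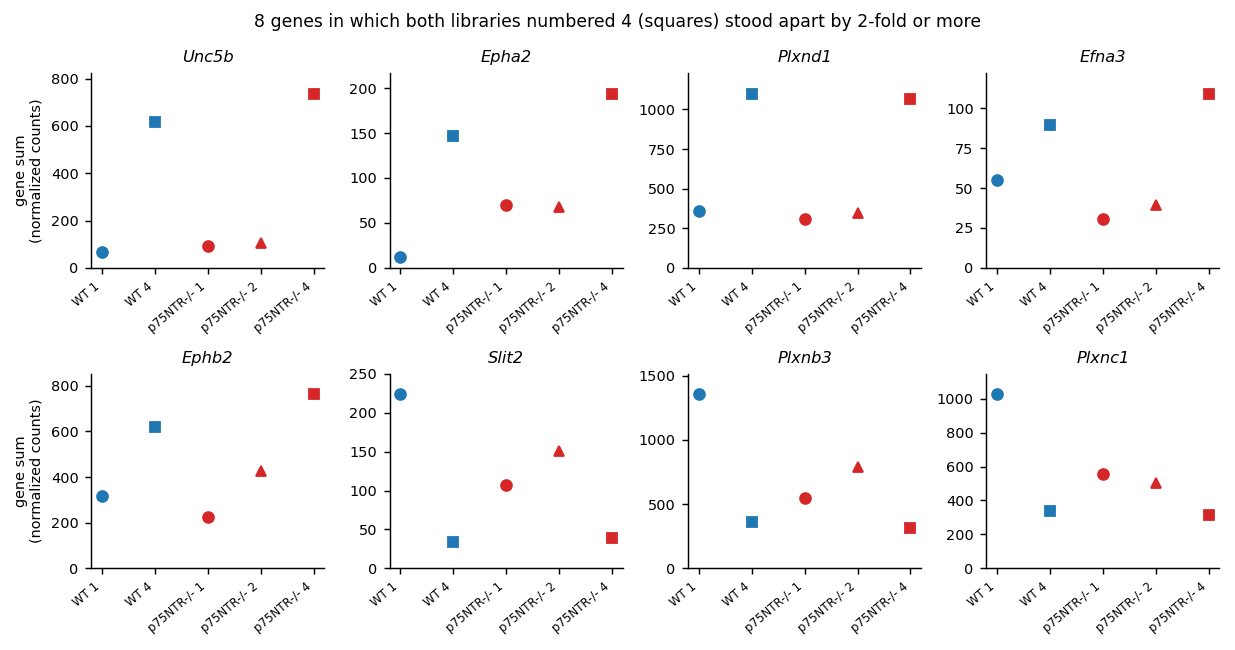
Gene sums in normalized counts (linear axes from 0) of the 8 genes in which both libraries numbered 4, drawn as squares, stood apart from the other 3 by 2-fold or more, with blue for the label WT and red for p75NTR-/-. In Unc5b the squares sit at 617 and 734 and the other libraries between 66.7 and 107, and in Slit2 the squares sit at 34.3 and 39.1.

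Replicate 1 labelled WT also stood apart from the other 4 libraries in many members. It was the highest library for 17 of the 46 members (37%, beside 28.4% of all gene sums of this level) and the lowest for 10 (21.7%, beside 33.3%). In 10 members (21.7%) it differed from the other 4 by 2-fold or more, beside 7.21% of all gene sums of this level. It was the highest of them for Dcc, Lingo1, Plxnb3, Plxnc1, Sema5a, Sema6c and Slit2, and the lowest for Efnb2, Epha2 and Unc5b. Plxnb3, Plxnc1, Slit2, Epha2 and Unc5b were also among the 8 members split by 2-fold or more by number 4. The patterns thus share genes and are not separate. As 1 of only 2 libraries labelled WT, it bore on the comparison of the labels. Of the 10 largest log2 fold changes, 8 were nearer to 0 or of the other sign without it. These 10 were picked in the fit that includes this library, so that values nearer to 0 without it partly follow from the choice. The median log2 fold change of the members was 0.040 without it.

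At the level of single transcripts, limma called 0 of 100 member transcripts, beside 0.0135% of all, and 4 had an unadjusted p under 0.05, beside 3.14%. DESeq2 called 1, beside 0.126% of all transcripts, and edgeR called 0 of the 95 it tested, beside 0%. The transcript called by DESeq2 was ENSMUST00000120756 of Sema5b, the form that keeps the 87-base stretch printed in capitals. Replicates 1 and 4 labelled WT held 0 and 8.32 normalized counts of it and replicates 1, 2 and 4 labelled p75NTR-/- held 137, 86.5 and 90.9, so that the labels were far apart. The log2 fold change was 5.08 ± 1.03 with an adjusted p of 0.845 in limma, and 4.65 with an adjusted p of 0.0091 in DESeq2. With 1 library left out it ranged from 3.47 to 6.69, and it could not change sign, as the labels did not overlap.

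The main form of Sema5b, ENSMUST00000050625, which lacks the stretch, had 921 and 860.3 normalized counts labelled WT and 753, 1141 and 790.2 labelled p75NTR-/-. The gene sum was therefore even, and the form with the stretch made up 0 and 0.83% of it labelled WT and 13.3, 6.74 and 8.79% labelled p75NTR-/-. Reads from exons shared by the forms were divided between them by the authors' estimate, so that the value of 1 form rests on few positions.

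Ephb2 showed a similar picture. Transcript ENSMUST00000105846 had 0 and 15.6 normalized counts labelled WT and 37.6, 86.5 and 83.5 labelled p75NTR-/- (log2 fold change 4.01 ± 1.33, unadjusted p 0.0351 and adjusted p 0.962 in limma), and ENSMUST00000059287 had 24.5 and 41.6 against 40.6, 141 and 176 (1.62 ± 0.75, limma adjusted p = 0.962). The labels did not overlap for the first and did for the other. The dominant form ENSMUST00000105845 had 293 and 561 labelled WT and 144, 198 and 503 labelled p75NTR-/-, and carried the difference between the libraries numbered 4 and the others.

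Further forms had higher values under the label p75NTR-/-. Sema6a ENSMUST00000115449 had 0 and 7.28 normalized counts labelled WT and 46.5, 32.4 and 19.0 labelled p75NTR-/- (log2 fold change 3.46 ± 1.03, unadjusted p 0.025 and adjusted p 0.962 in limma). Sema6d ENSMUST00000078621 had 71.6 and 69.7 labelled WT and 141, 147 and 98.3 labelled p75NTR-/- (0.83 ± 0.26, unadjusted p 0.0294 and adjusted p 0.962 in limma). In both the labels did not overlap, while the gene sums overlapped. Epha5 ENSMUST00000113401 went the other way, with 477 and 338 against 275, 258 and 311 (-0.52 ± 0.25, limma adjusted p = 0.962). Robo2 ENSMUST00000227347 had 366 and 189 against 135, 136 and 206 (-0.76 ± 0.40, limma adjusted p = 0.962), and its labels overlapped.

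In Unc5b, both listed forms followed the replicate number. The form with the 33-base exon, ENSMUST00000077925, had 257 and 448 normalized counts in the libraries numbered 4 labelled WT and p75NTR-/- and 35.3, 46.5 and 70.9 in the others, and ENSMUST00000218637 had 360 and 286 against 31.4, 47.5 and 36.0. The form with the exon took 41.7% and 61.0% of the gene sum in the libraries numbered 4 and between 49.5% and 66.3% in the others, so that the shares overlapped. In Neo1, the form with the 48-base and 33-base stretches, ENSMUST00000068664, had 461 and 382 in the libraries numbered 4 and 273, 237 and 243 in the others. It thus made up 15.8% and 13.8% of the gene sum there and 8.44% to 10.1% elsewhere, although the gene sum of Neo1 overlapped between these libraries. These 2 genes were chosen after their transcript values were seen, and the difference has no test.

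**Figure D5:**
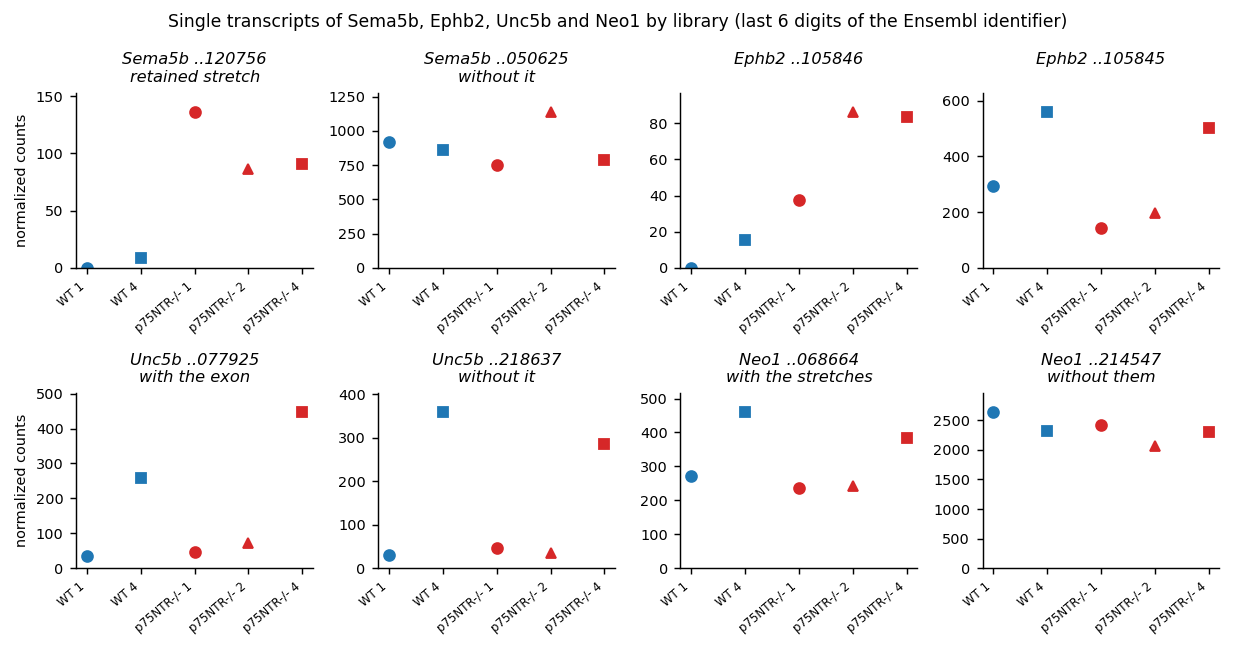
Normalized counts (linear axes from 0) of 2 listed transcripts each of Sema5b, Ephb2, Unc5b and Neo1 in the 5 libraries, named by the last 6 digits of the Ensembl identifier, with squares for the libraries numbered 4, blue for the label WT and red for p75NTR-/-. The Sema5b form with the retained stretch is at 0 and 8.32 under the label WT and at 86.5 to 137 under p75NTR-/-, whereas both Unc5b forms are high in the squares.

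The signalling partners of the guidance receptors gave no call either. Of 71 listed genes, such as the RhoA effector kinases, the collapsin response mediators and the Ena/VASP proteins, 67 had a listed transcript and 63 a mean of 50 or more. limma called 0 and found 0 with an unadjusted p under 0.05, beside 2.08% of all gene sums. DESeq2 called 0, and 5 of the 67 had an unadjusted p under 0.05, a larger share than the 3% of all gene sums. edgeR called 0 and found 2 with an unadjusted p under 0.05 (beside 2.11%). The median log2 fold change of the 63 was -0.093, beside 0.016 for all gene sums of this level, with 25 above 0 and 38 below. The 3 most abundant were Cfl1, the actin-severing cofilin (21423 ± 835 labelled WT, n = 2, and 23435 ± 303 labelled p75NTR-/-, n = 3), the Src-family kinase Fyn (6507 ± 464 and 7148 ± 165) and the small GTPase Rhoa (6097 ± 295 and 5866 ± 572), as mean normalized counts ± SD. The log2 fold changes were 0.13, 0.14 and -0.059, each with a limma adjusted p of at least 0.934. The libraries numbered 4 stood above the other 3 in 16 of the 63 (25.4%, beside 23% of all gene sums of this level) and below in 11 (17.5%, beside 22%).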

How the data were processed

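RNA-Seq libraries of 5 NSPC cultures, 2 labelled WT and 3 labelled p75NTR-/-, were compared. The authors made stranded mRNA libraries from 500 ng RNA and, per the labels' processing notes, used FastQC, Salmon 0.10.2, DESeq2 1.22.0 and R 3.6.1 with GRCm38.p6. Per library, the deposited signal equals counts over a DESeq2 size factor with 0.5 added. The deposited TPM values (level per length) were used for levels only. The score columns, the log2 fold change and the p-value columns of the authors' own comparison were not used, and 0 per-sample columns stayed unused. The study calls its replicas independent preparations, and the labels name no litter or day.

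Members, lists, alternatives and the rule on which genes to name were chosen with earlier results of these data known. Of 22530 lines, 303 repeat a transcript and were dropped. After subtraction of 0.5, 100% of the values in every library were multiples of 1 step (0.981 to 1.20 normalized counts, tolerance 0.011 normalized counts), which gave the counts back. All 100 member transcripts matched GENCODE M21 by identifier. limma 3.58.1 (lmFit, eBayes, pseudocount 1, R 4.3.3) was fitted over all gene sums and over all transcripts, on a log scale with a pseudocount, which shrinks differences of low genes. DESeq2 1.42.0 and edgeR 4.0.16 (quasi-likelihood) were run on the recovered counts as alternatives, with other pseudocounts, a filter at a mean of 50, TMM factors, a replicate block, each library left out, both libraries numbered 4 left out and values within number 1 and number 4. The scripts were tested on simulated data. Named genes are members past the threshold, the 3 with the highest mean gene sum of each family, the 10 with the largest fold change and the 5 with the largest range over the libraries (mean of at least 50), the 10 transcripts of mean 10 or more with the lowest p, the 3 most abundant signalling partners, and Ngfr. Others are said to be named after their values were seen. Motifs were searched in the RefSeq promoter table.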

Additional observations from a re-analysis of the deposited data

How the results depend on the processing

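Under every alternative limma, DESeq2 and edgeR called 0 member gene sums. Only 24 log2 fold changes were followed, picked by their values in these data: the 10 largest, the gene sums whose labels did not overlap and the 10 transcripts of lowest p. Of their 338 recomputed values, 318 kept direction and side of the threshold or, within a number, moved by less than 1 SD between replicates. Another 16, all of them within a number, moved by 1 SD or more. The other values were judged by direction and side of the threshold alone. Where the labels did not overlap, leaving out a library could not reverse the direction. Without replicate 1 labelled WT, 3 of the 24 reversed: Epha2 from 1.18 to -0.59, Efnb2 from 0.54 to -0.037 and Robo2 from -0.47 to 0.033. With each library left out they ranged from -0.59 to 2.94, from -0.037 to 1.11 and from -0.98 to 0.033. Other named genes also changed sign with 1 library left out, such as Unc5b (-1.66 to 1.53), Slit2 (-1.37 to 1.30) and Epha5 (-0.69 to 0.17). The Sema5b transcript ENSMUST00000120756 passed the threshold only in DESeq2 (4.65), so that DESeq2 called 1 member transcript where limma called 0. The members with an unadjusted p under 0.05, 1 in limma, were 2 with the filter at a mean of 50, 2 in DESeq2, 2 in edgeR and 16 (25.8%, beside 25.9% of all gene sums) without both libraries numbered 4, and 0 to 13 when each library was left out: 13 (21%, beside 14%) without replicate 4 labelled WT and 6 (9.68%, beside 10.9%) without replicate 4 labelled p75NTR-/-. Without replicate 4 labelled WT, with or without the other library numbered 4, the label WT is replicate 1 alone, the library that stands apart, and the spread comes from the libraries labelled p75NTR-/-, as which the lone library is assumed to vary. The same holds for replicate 4 without replicate 1 labelled WT. Their median log2 fold change of -0.075 was -0.25 without both libraries numbered 4, -0.25 within number 1 and 0.022 within number 4, and -0.15 to 0.040 with each library left out. Over all gene sums, 1 call became 7 in DESeq2, 0 in edgeR, 0 without both libraries numbered 4 and 0 to 1 with each library left out. Over all transcripts, 3 calls became 0 with a pseudocount of 5, 28 in DESeq2, 0 in edgeR, 0 without both libraries numbered 4 and 0 in every fit with 1 library left out. With the replicate block, 0 gene sums and 0 transcripts were called. The numbers were not taken as a pairing, since only 2 are shared. The deviations of same-numbered libraries from the mean of their label correlated at 0.26 for number 1 and 0.48 for number 4 over 10786 genes. Replicate 1 labelled WT correlated at 0.48 with replicate 2 labelled p75NTR-/-. The deviations of the 2 libraries labelled WT are equal and opposite, so that these correlations depend on each other and cannot decide on a pairing. The cause of these changes was not tested. The alternatives without both libraries numbered 4 and within a number were chosen after seeing the data. Only 2 libraries carry the label WT, and counting error weighs most on the 16 members under a mean of 50.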
